A study of Homo sapiens with 2 samples.

Results

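Antisense lncRNAs of the -AS1 kind, and the sense genes after which they are named, were followed in HSC-1 cells after knockdown of the lncRNA LINP1. The members were the gene rows typed as lncRNA whose name ended in -AS1 and which were selected on their measured values, a minimum of 100 reads in siNC and siLINP1 combined. There were 181 such genes among 928 lncRNA rows of that name and among 44591 genes in all. Of the others, 746 were below the minimum, and PRKCQ-AS1 was left out by the rule. The sense partner was the gene named by the part before -AS1, and it had a row for 178 members. No partner row was found for HOXB-AS1, JHDM1D-AS1 and RPARP-AS1, and the partners F11 and FGD5 held 3 and 2 reads, under the minimum of 10 reads, which left 176 pairs to compare.

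The study asked what happens in cSCC, a squamous cancer of the skin, once LINP1 is lost, and HSC-1 is an established human cSCC line. Cells in the control group were transfected with siNC, a non-targeting siRNA, and cells in the other group with siLINP1, an siRNA against LINP1. Both groups received the transfection reagent at about 70% confluency, stayed in serum-free DMEM for 6 h and were then kept for 24 h in DMEM with serum. Total RNA was sequenced in 1 library per group, and the labels do not say which siLINP1 oligonucleotide was used. With 1 library per group no difference could be tested, no p-value was computed, and every interval given here is a 95% interval that covers counting error only.

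Antisense lncRNAs are transcribed from the strand opposite to a neighbouring gene, often a protein-coding gene. Many start at the same promoter region as the partner and run away from it (head-to-head), others lie inside the partner or meet it at its end (tail-to-tail). Some are known to act on the partner in cis, through transcription, chromatin or RNA pairing, while others act elsewhere as scaffolds or miRNA sponges, and short-lived ones are removed by the nuclear RNA exosome.

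The stretch of DNA between an antisense start and its partner start is where a head-to-head pair shares its promoter region. In 37 of the 176 pairs the 2 spans did not overlap and the starts lay within 1000 bases, with 2 to 589 bases (median 106) between them. The 4 stretches given here were picked by the counts, from 2 pairs whose genes moved apart and 2 whose genes moved together. Each is read from the GRCh37 genome 5′ to 3′ in the direction of the antisense gene. The bases between the annotated starts are in capitals, and 30 bases on either side are in lower case.
TMEM161B-AS1: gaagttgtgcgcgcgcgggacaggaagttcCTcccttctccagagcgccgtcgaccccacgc
WAC-AS1: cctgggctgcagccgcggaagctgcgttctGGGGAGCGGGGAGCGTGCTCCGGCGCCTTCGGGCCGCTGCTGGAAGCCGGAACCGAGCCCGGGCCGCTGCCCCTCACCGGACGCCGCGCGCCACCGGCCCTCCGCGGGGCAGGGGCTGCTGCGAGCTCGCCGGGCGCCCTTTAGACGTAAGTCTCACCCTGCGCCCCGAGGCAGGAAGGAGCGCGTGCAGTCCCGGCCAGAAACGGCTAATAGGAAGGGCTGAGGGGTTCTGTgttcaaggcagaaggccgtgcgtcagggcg
RNASEH1-AS1: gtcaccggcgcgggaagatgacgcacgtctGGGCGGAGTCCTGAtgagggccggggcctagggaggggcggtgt
NIPBL-AS1: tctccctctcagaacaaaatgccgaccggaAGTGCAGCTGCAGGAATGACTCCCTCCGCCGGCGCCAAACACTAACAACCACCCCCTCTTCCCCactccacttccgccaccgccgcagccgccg
The TMEM161B-AS1 stretch is chr5:87564667-87564728 on the plus strand and the WAC-AS1 stretch is chr10:28821254-28821546 on the minus strand. These antisense genes were lower in siLINP1 while their partners were higher. The RNASEH1-AS1 stretch is chr2:3605932-3606005 on the plus strand and the NIPBL-AS1 stretch is chr5:36876767-36876890 on the minus strand, from pairs in which both genes were higher. Only 2 bases separated the starts of TMEM161B-AS1 and TMEM161B and 14 bases those of RNASEH1-AS1 and RNASEH1, so close starts were found in a pair that moved apart and in a pair that moved together.

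The siNC library held 18829544 counted reads and the siLINP1 library 15383081. LINP1 itself had 167 reads in siNC and 23 in siLINP1, which was 6.28-fold lower after scaling by library size factors (log2 fold change -2.65, interval -3.35 to -2.02). The cell type was checked on 15 keratinocyte markers, none of which was at 0. Of these, 9 were under 1 RPKM in both libraries, and their summed level was 151 RPKM in siNC and 154 RPKM in siLINP1. Most of this sum was S100A2, at 112 RPKM in siNC and 116 RPKM in siLINP1. KRT14, KRT17, SFN and PERP were also above 1 RPKM in both libraries. The basal keratin KRT5 had 32 and 24 reads and the squamous lineage factor TP63 had 6 and 8. Of 11 mesenchymal markers, 1 was under 1 RPKM in both libraries, and their sum was 2089 RPKM in siNC and 1719 RPKM in siLINP1. Most of that sum was VIM (1519 and 1278 RPKM) and SPARC (505 and 382 RPKM). Single markers went both ways, with ZEB2 at 1.90 and 4.52 RPKM and CDH2 at 22.2 and 15.9 RPKM. The part of cell state in the changes given here was not tested. In bulk RNA, fewer cells of a type and less RNA per cell cannot be told apart.

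Across the 181 antisense lncRNAs, changes went in both directions around a median near 0. The log2 fold change of siLINP1 over siNC had a median of 0.0059 (interval of the median -0.030 to 0.12), and it ranged from -1.15 to 2.24. The median over all 13336 genes with at least 100 reads was -0.029, and over the 376 other lncRNAs with that many reads it was 0.053. A rise of more than 1.5-fold was seen in 18 members (9.94%) and a fall of more than 1.5-fold in 10 (5.52%). Among all genes with at least 100 reads these shares were 8.72% and 6.77%, near those of the members. The members had fewer reads than these genes (median 260 against 1099), and shares at like depth are given below. Among the other lncRNAs with at least 100 reads the shares were 15.2% and 7.18%. With total-count scaling 23 members were in the first set and 7 in the second, and the shares of all genes became 11.0% and 4.54%.

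Most members were thinly covered. Their reads ran from 100 to 30061 with a median of 260, and 145 of them had under 500 reads. Among these 145, a rise of more than 1.5-fold was seen in 14 (9.66%) and a fall in 9 (6.21%). Of all genes with at least 100 and under 500 reads, 13.9% rose and 12.7% fell by as much. At this depth both shares of the members were thus below those of all genes. The interval of the change lay above 0 for 35 members (19.3%) and below 0 for 38 (21%), beside 28.8% and 33.4% of all genes with at least 100 reads, which had a median of 1099 reads. For 5 members (2.76%) the whole interval lay above a 1.5-fold rise, and for 2 (1.1%) below a 1.5-fold fall. The background was 4.18% and 1.97%. Members just inside the read minimum were ZNF790-AS1 with 54 and 46 reads in siNC and siLINP1, TRAM2-AS1 with 53 and 48, and DNMBP-AS1 with 45 and 58. Just outside it were ACVR2B-AS1 with 42 and 57, DCST1-AS1 with 63 and 35, and NCK1-AS1 with 47 and 51.

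MATN1-AS1 had the largest rise among the members. It lies at chromosome 1, 31191619 to 31199593, on the plus strand (GRCh37, as are all positions here), head-to-head with MATN1, which encodes the cartilage matrix protein matrilin 1. It had 52 reads in siNC and 213 in siLINP1, 4.74-fold higher (log2 fold change 2.24, 1.80 to 2.71). MATN1 went from 15 to 36 reads (1.47, 0.57 to 2.45), so both genes of the pair were higher in siLINP1, at low read numbers for MATN1. ZFPM2-AS1 lies tail-to-tail with ZFPM2, which encodes a cofactor of GATA transcription factors. It had 196 reads in siNC and 426 in siLINP1, 2.51-fold higher (1.33, 1.08 to 1.58). ZFPM2 had 544 and 599 reads (0.35, 0.18 to 0.52), so the antisense gene was raised further than its partner.

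NEXN-AS1, head-to-head with the gene of the actin-binding protein nexilin, had 69 reads in siNC and 146 in siLINP1 (1.29, 0.87 to 1.73), and NEXN had 248 and 359 (0.74, 0.51 to 0.98). RGMB-AS1 lies inside RGMB, a BMP co-receptor gene, and had 77 and 138 reads (1.05, 0.64 to 1.47), while RGMB had 1408 and 1607 (0.40, 0.30 to 0.50). LBX2-AS1, whose partner LBX2 is a homeobox gene, had 582 and 901 reads (0.84, 0.69 to 0.99), with 293 and 341 for LBX2 (0.43, 0.20 to 0.66). In each of these pairs both genes were higher and the antisense gene was higher by more than its partner. These 3, MATN1-AS1 and ZFPM2-AS1 were the 5 members with a whole interval above a 1.5-fold rise.

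**Figure D1:**
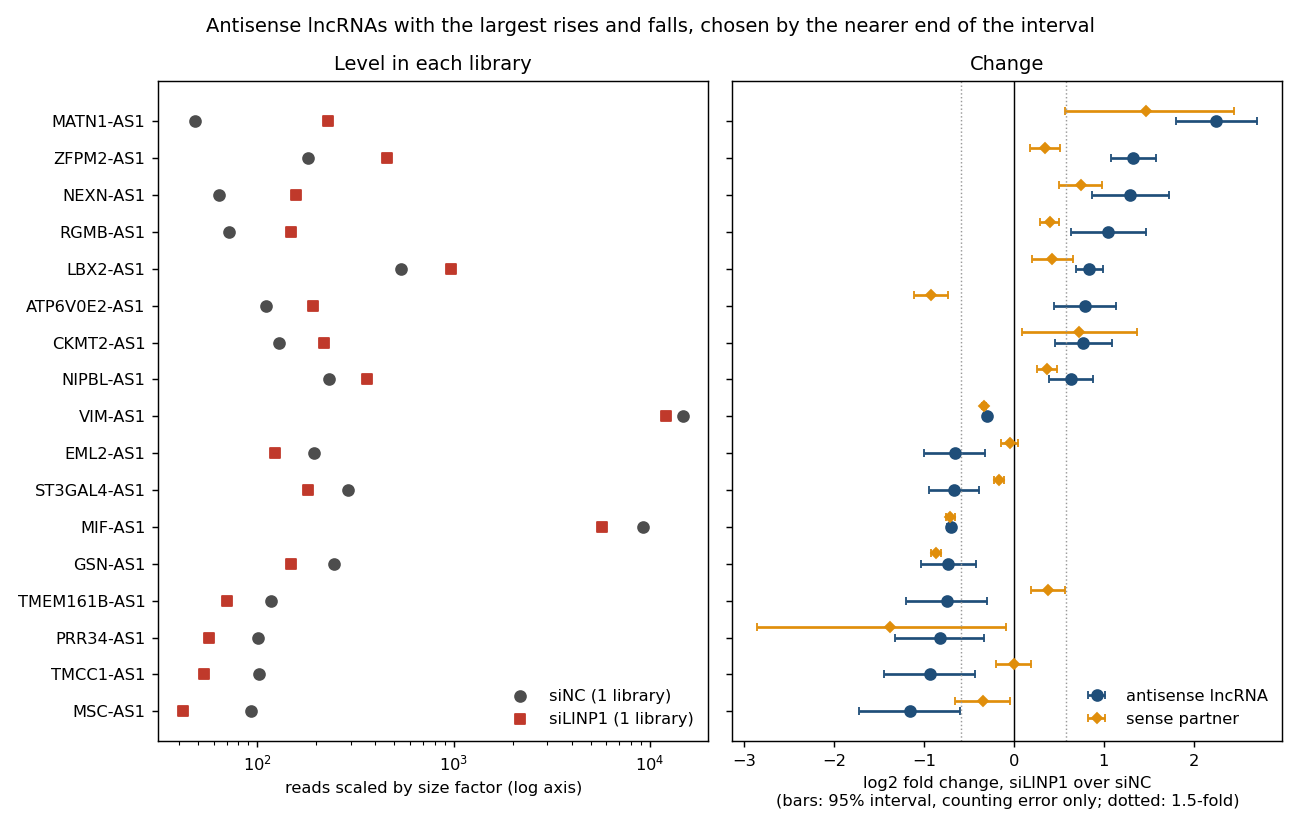
Left, reads scaled by size factor on a log axis in the siNC library (circles) and the siLINP1 library (squares) for 8 of the 10 largest rises and 9 of the 10 largest falls, chosen by the interval bound that is closer to no change and drawn in order of fold change. Right, log2 fold change of each antisense lncRNA (circles) and of its sense partner (diamonds) with 95% intervals for counting error; ATP6V0E2 at -0.92 lies on the other side of 0 from ATP6V0E2-AS1 at 0.79, whereas MIF and MIF-AS1 lie together at -0.70.

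Further large rises were in genes whose partners were higher as well or were lower. CKMT2-AS1 had 138 and 204 reads (0.77, 0.46 to 1.10), and CKMT2, a mitochondrial creatine kinase gene, had 37 and 53 (0.73, 0.10 to 1.37). NIPBL-AS1 had 250 and 336 reads (0.64, 0.40 to 0.88) and NIPBL, which encodes the cohesin loader, 1252 and 1400 (0.37, 0.26 to 0.48). ATP6V0E2-AS1 had 119 and 178 reads (0.79, 0.45 to 1.14), while ATP6V0E2, a proton pump subunit gene, had 732 and 334 (-0.92, -1.11 to -0.73). Here the genes of the pair moved in opposite directions.

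MSC-AS1 had the largest fall. It is head-to-head with MSC, which encodes the repressor musculin, and it had 100 reads in siNC and 39 in siLINP1, 2.22-fold lower (log2 fold change -1.15, -1.72 to -0.60). MSC had 220 and 150 reads (-0.34, -0.65 to -0.04), so both genes were lower and the antisense gene by more. With total-count scaling the interval of MSC included 0 (-0.57 to 0.05). MIF-AS1 lies at chromosome 22, 24235897 to 24241117, on the minus strand and spans MIF, the gene of macrophage migration inhibitory factor. It had 9920 reads in siNC and 5284 in siLINP1 (-0.70, -0.75 to -0.65), and MIF had 9699 and 5146 (-0.70, -0.75 to -0.66). The counts of antisense and partner gene were nearly equal in each library and were lower by the same amount in siLINP1. MIF-AS1 shared 687 bases with the 730 exonic bases of MIF, and the strand setting of the counting is not given. The 2 counts may therefore hold reads of the same transcripts, which was not tested. MSC-AS1 and MIF-AS1 were the 2 members with a whole interval below a 1.5-fold fall. With total-count scaling neither was, and with TMM scaling MIF-AS1 alone was.

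GSN-AS1 lies inside the gene of the actin-severing protein gelsolin, and here antisense and sense were lower together. GSN-AS1 had 264 and 138 reads (-0.73, -1.03 to -0.42), and GSN had 8205 and 3891 (-0.87, -0.92 to -0.81). ST3GAL4-AS1, partner of a sialyltransferase gene, had 310 and 169 reads (-0.67, -0.94 to -0.39), and ST3GAL4 had 6336 and 4889 (-0.16, -0.22 to -0.11). PRR34-AS1 had 108 and 53 reads (-0.82, -1.32 to -0.33) and PRR34 had 21 and 7. In these 3 pairs both genes were lower in siLINP1.

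Other large falls stood beside partners that did not follow. TMCC1-AS1 had 110 reads in siNC and 50 in siLINP1 (-0.93, -1.44 to -0.43), and TMCC1 had 481 and 416 (0.00, -0.19 to 0.19). EML2-AS1 lies inside the gene of a microtubule-associated protein and had 210 and 115 reads (-0.66, -1.0 to -0.32), and EML2 had 1947 and 1633 (-0.04, -0.14 to 0.05). TMEM161B-AS1 had 126 and 65 reads (-0.75, -1.20 to -0.30), whereas TMEM161B had 430 and 483 (0.38, 0.19 to 0.57). The starts of TMCC1-AS1 and TMCC1 lie head-to-head with 294 bases between them, and in these 3 pairs the antisense gene was lower relative to its partner.

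Taken by themselves, the 176 partners were as evenly split as the antisense genes, with a median log2 fold change of 0.0040 (-0.094 to 0.074). A rise of more than 1.5-fold was seen in 17 (9.66%) and a fall of that size in 10 (5.68%). Among all genes with at least 100 reads these shares were 8.72% and 6.77%. Partners had more reads (median 1503), and their intervals lay above 0 for 59 (33.5%) and below 0 for 61 (34.7%). The shares of all genes with at least 100 reads were 28.8% and 33.4%. In 22 pairs the intervals of both genes lay above 0 and in 20 pairs both lay below 0, which gave 42 pairs that moved the same way. In 16 pairs the intervals lay on opposite sides. In 14 pairs the interval of the antisense gene alone was clear of 0, in 62 that of the partner alone, and in 42 neither. Across pairs, Pearson's r of the log2 fold changes was 0.28 and Spearman's rho 0.25 (n = 176). Without MATN1-AS1 these were 0.21 and 0.23. Both genes of a pair came from the same libraries, and the spans of 132 pairs overlapped, so these are descriptions of the pairs.

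**Figure D2:**
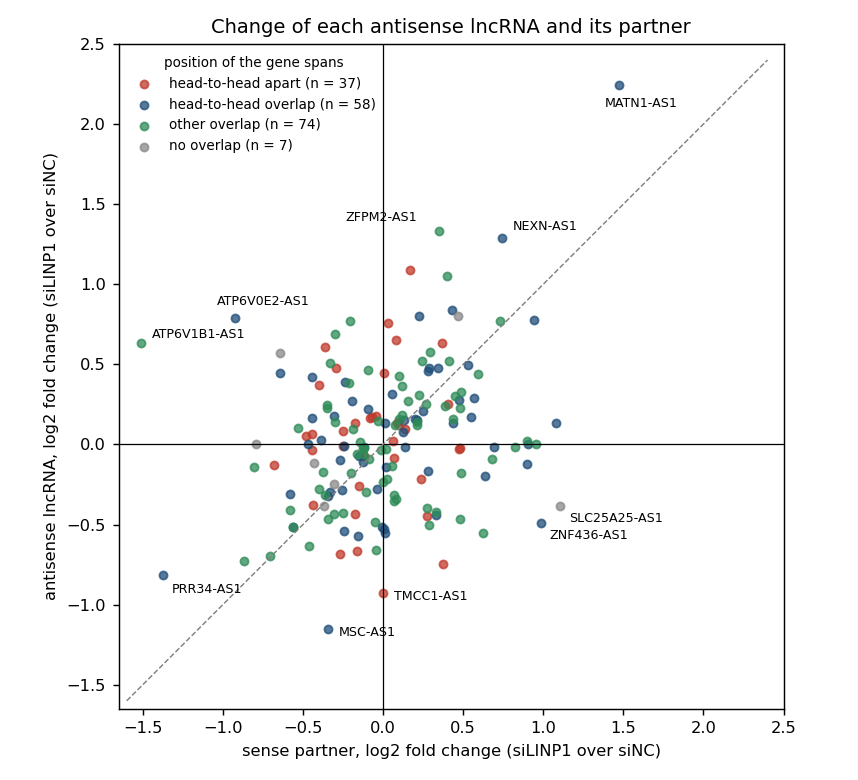
Log2 fold change (siLINP1 over siNC) of each antisense lncRNA on the vertical axis against that of its sense partner on the horizontal axis, for 176 pairs coloured by how the gene spans lie; the dashed line marks equal change. Points spread around 0 in both directions (Pearson's r 0.28), with MATN1-AS1 at the upper right and ATP6V0E2-AS1, ATP6V1B1-AS1, ZNF436-AS1 and SLC25A25-AS1 in the quadrants of opposite change.

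Pairs that were higher together also included genes outside the largest rises. CEBPB-AS1 had 510 reads in siNC and 535 in siLINP1 (0.28, 0.10 to 0.46), and CEBPB, the gene of the transcription factor C/EBP beta, had 2924 and 3512 (0.47). RASAL2-AS1 had 66 and 98 reads (0.78, 0.31 to 1.25), and RASAL2, which encodes a Ras GTPase-activating protein, had 2144 and 3566 (0.94, 0.87 to 1.02). ASH1L-AS1 had 77 and 94 reads (0.50) beside 2425 and 3031 for the histone methyltransferase gene ASH1L (0.53). In each of the 3 pairs the value of the partner was above that of the antisense gene. Pairs that were lower together included PCNA-AS1 with 457 and 298 reads (-0.41), beside 1905 and 1100 for the replication clamp gene PCNA (-0.58). They also included SLC25A5-AS1 with 237 and 141 reads (-0.54), beside 8167 and 5969 for the ADP/ATP carrier gene SLC25A5 (-0.24). These 5 pairs were chosen after their values were seen. PCNA-AS1 lies wholly inside PCNA, at 63.2 and 50.4 RPKM in siNC and siLINP1 beside 70.2 and 49.6 RPKM for PCNA. The strand setting of the counting is not given, so the counts of this pair may hold reads of the same transcripts, which was not tested.

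The ratio of antisense to sense reads does not depend on how the libraries are scaled, and its change was used to find pairs that came apart. The antisense gene was relatively higher in siLINP1 in 37 pairs, relatively lower in 29, and the interval of the ratio change included 0 in 110. For 6 pairs the whole interval lay above a 1.5-fold gain of the antisense gene and for 4 below a 1.5-fold loss. The gains were in ATP6V1B1, ATP6V0E2, OIP5, DHRS4, MZF1 and ZFPM2, and the losses were in SLC25A25, ZNF436, GAS6 and TMEM161B, each with its antisense gene. No share of such ratio changes was computed over other pairs of genes, so these counts were not read against a background.

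ATP6V0E2 and ATP6V1B1 encode subunits of the vacuolar proton pump, and in both pairs the antisense gene was higher while the pump gene was lower. The ATP6V0E2-AS1 to ATP6V0E2 ratio was 3.28-fold higher in siLINP1 (log2 change 1.71, 1.32 to 2.11). For ATP6V1B1-AS1 the reads were 97 and 130, for ATP6V1B1 33 and 10, and the ratio was 4.42-fold higher (2.14, 1.0 to 3.39). The wide interval of the second pair goes with the low counts of ATP6V1B1. ATP6V0E2-AS1 starts inside the first part of ATP6V0E2 and runs away from it, whereas ATP6V1B1-AS1 lies within ATP6V1B1.

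OIP5-AS1, the human counterpart of the conserved lncRNA Cyrano, had 352 reads in siNC and 452 in siLINP1 (0.57, 0.37 to 0.78). OIP5, which encodes a protein needed to load the centromeric histone, had 228 and 126 (-0.65, -0.97 to -0.33), and the ratio was 2.32-fold higher (1.22, 0.83 to 1.60). The spans of the pair in the deposited table do not overlap, whereas in the longer GENCODE models OIP5-AS1 shares 759 bases with the 1201 exonic bases of OIP5. DHRS4-AS1 had 205 and 242 reads and the dehydrogenase gene DHRS4 215 and 119, a ratio change of 1.09 (0.66 to 1.53). MZF1-AS1 had 154 and 215 reads and the zinc finger gene MZF1 591 and 416, a ratio change of 0.99 (0.63 to 1.35). For ZFPM2-AS1 the ratio change was 0.98 (0.68 to 1.29), with both genes higher.

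In the opposite direction, SLC25A25-AS1 had 157 reads in siNC and 104 in siLINP1 (-0.38, -0.76 to -0.02), while SLC25A25, a mitochondrial carrier gene, had 685 and 1272 (1.10, 0.97 to 1.24). The ratio was 2.80-fold lower (-1.49, -1.88 to -1.09). ZNF436-AS1 had 117 and 72 reads (-0.49, -0.94 to -0.06), the zinc finger gene ZNF436 had 302 and 517 (0.99, 0.78 to 1.19), and the ratio change was -1.48 (-1.97 to -0.99). In both pairs the partner moved further than the antisense gene. GAS6-AS1 had 249 and 147 reads (-0.55, -0.85 to -0.25), and GAS6, the gene of a ligand of TAM receptor kinases, had 441 and 589 (0.63, 0.45 to 0.81), a ratio change of -1.18 (-1.53 to -0.82). The TMEM161B-AS1 ratio changed by -1.12 (-1.62 to -0.64).

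Ranked by the interval end nearer to 0, and not by the ratio change itself, TNRC6C-AS1 and WAC-AS1 completed the 6 largest losses. For these 2 pairs that end lay inside 1.5-fold. TNRC6C-AS1, which was matched in GENCODE to the gene TMC6, had 126 and 79 reads. TNRC6C, which encodes a protein of miRNA silencing complexes, had 581 and 700 (ratio change -0.94, -1.40 to -0.49). WAC-AS1 had 530 and 337 reads and WAC 1682 and 1760 (-0.72, -0.94 to -0.50). In the 9 pairs with a higher antisense gene and a lower partner, STARD7-AS1, UBA6-AS1, PAXIP1-AS1 and SBF2-AS1 stood beside the 5 given above. In the 7 pairs of the reverse kind, SERTAD4-AS1 stood beside the 6 given above. With total-count scaling 4 of these 16 opposite pairs ended, because the intervals of SLC25A25-AS1, ZNF436-AS1, TNRC6C-AS1 and SBF2 then included 0, and with TMM scaling that of SLC25A25-AS1 did.

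**Figure D3:**
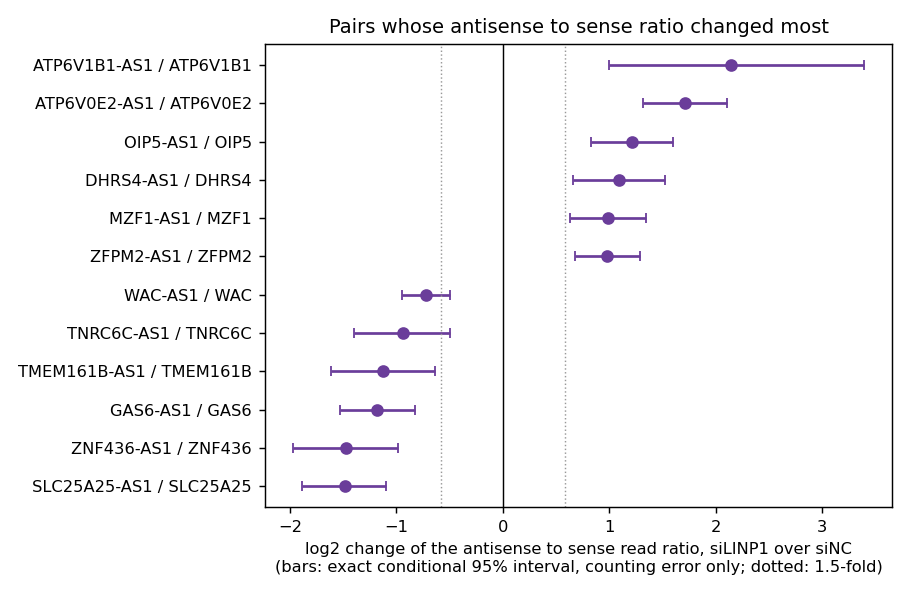
Log2 change of the antisense to sense read ratio (siLINP1 over siNC) for the 6 pairs with the largest gain and the 6 with the largest loss of the antisense gene as judged by the interval bound closer to 0; bars are exact conditional 95% intervals for counting error and dotted lines mark 1.5-fold. The values run from 2.14 for ATP6V1B1-AS1 to -1.49 for SLC25A25-AS1, and all 12 intervals lie clear of 0.

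The pairs were then grouped by how their spans lie. The 37 head-to-head pairs without overlap had Pearson's r of 0.064, with 7 pairs moving the same way and 4 opposite. The 58 head-to-head pairs with overlapping spans had r of 0.43 (0.30 without MATN1-AS1), with 18 pairs moving the same way and 5 opposite. The 74 pairs with other overlap had r of 0.22, with 16 and 5 pairs. Among these, 27 antisense genes lay inside the partner, 5 held the partner and 42 met it tail-to-tail. In the 7 remaining pairs the spans lay apart, and no pair was on the same strand. Over all 132 overlapping spans r was 0.34 (0.26 without MATN1-AS1), and over the 44 without overlap it was 0.025. The median size of the ratio change was 0.41 for the head-to-head pairs without overlap, 0.31 for those with overlap and 0.22 for other overlap, on the log2 scale. Whether these classes differ beyond chance was not tested.

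The strand setting and the mode of the counting are not given in the sources used here. A read from exonic sequence that antisense and sense genes share could therefore have been counted for either, for both or for neither. By GENCODE exon models, 130 pairs shared exonic bases and 41 did not. Pearson's r was 0.30 with shared bases (0.21 without MATN1-AS1) and 0.19 without, while Spearman's rho had the reverse order, at 0.23 with shared bases and 0.28 without. In the 37 pairs where shared bases made up over 25% of the antisense exons, the median size of the ratio change was 0.19, beside 0.31 in the 93 pairs with a smaller shared part and 0.27 in the 41 pairs with none, so the order was not steady. MIF-AS1 shared 687 of its 1476 exonic bases (46.5%) with MIF, whose exons cover 730 bases, and MATN1-AS1 shared 20.8%. ZFPM2-AS1 and RASAL2-AS1 shared none with their partners. The part of shared reads in the common movement of pairs was not tested. As a comparison chosen after the data were seen, 582 head-to-head pairs of protein-coding genes with starts within 1000 bases had r of 0.19, with 137 pairs moving the same way and 92 opposite.

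Levels are compared here per length, as RPKM. Antisense lncRNAs had a median of 3.29 RPKM in siNC (0.464 to 425) and 3.89 RPKM in siLINP1 (0.516 to 367), and their partners had medians of 9.43 and 11.3 RPKM. The median ratio of antisense to partner RPKM in siNC was 0.367. In 39 pairs the antisense gene was above its partner in both libraries and in 47 in at least 1 library. These were rare among head-to-head pairs without overlap, where RAB30-AS1 was the 1 pair of 37 with the antisense gene higher in both libraries, at 10.9 RPKM in siNC beside 1.85 RPKM for RAB30. The median level ratio was 0.310 in this class, 0.329 in head-to-head pairs with overlap and 0.619 in pairs with other overlap. Where spans overlap, the antisense count may hold reads of the partner, and the part of such reads in these levels was not tested.

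**Figure D4:**
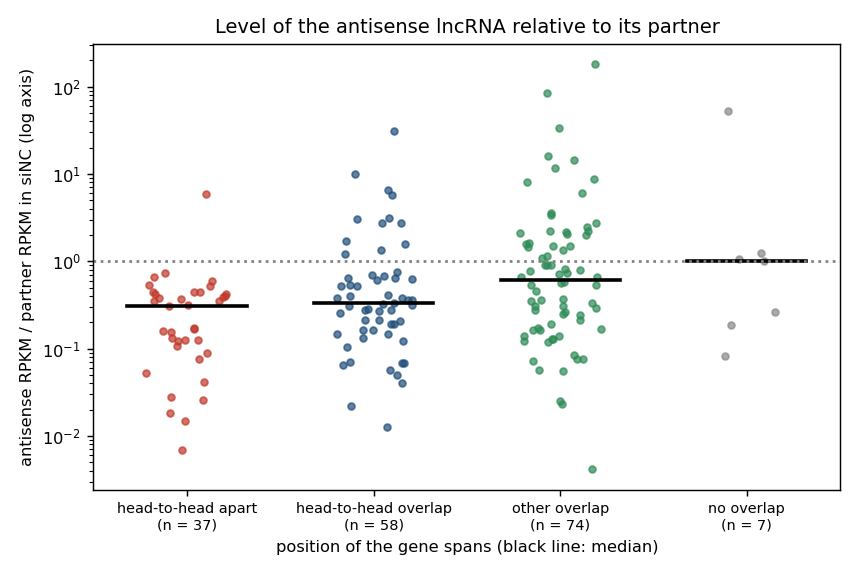
Ratio of antisense to partner RPKM in the siNC library on a log axis for each of the 176 pairs, by how the gene spans lie; black lines are medians and the dotted line marks equal levels. Medians are 0.310, 0.329 and 0.619 in the first 3 classes, and most of the points above 1 belong to pairs with other overlap.

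The most read member was LRRC75A-AS1, which GENCODE lists as SNHG29, a snoRNA host gene. It had 17236 reads in siNC and 12825 in siLINP1 (log2 fold change -0.22, -0.25 to -0.18), at 364 and 331 RPKM, while LRRC75A stood at 2.02 and 2.17 RPKM. VIM-AS1 had 15952 and 11249 reads (-0.29, -0.33 to -0.26), at 425 and 367 RPKM. VIM, which encodes the intermediate filament protein vimentin, had 61097 and 41992 reads (-0.33, -0.35 to -0.31), so the pair was lower together and its ratio hardly moved (0.04, with 0 inside its interval). VIM-AS1 shared 30.9% of its exonic bases with VIM. FGD5-AS1 had 1480 and 1144 reads (-0.16, -0.27 to -0.05) although FGD5 had 2 and 0 reads. EPB41L4A-AS1 had 1172 and 991 reads (-0.03, -0.16 to 0.09), at 52.1 and 54.0 RPKM beside 0.617 and 0.646 RPKM for EPB41L4A. TRHDE-AS1 had 907 and 877 reads (0.16, 0.03 to 0.30). LRRC75A-AS1, FGD5-AS1 and EPB41L4A-AS1 were thus well expressed beside partners at low levels. Of the 6 most read members, MIF-AS1 described above was 1.62-fold lower and the other 5 moved by less than 1.5-fold.

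A list of 24 well-known antisense RNAs held 17 members. Among them PSMB8-AS1 had 85 reads in siNC and 128 in siLINP1 (0.80, 0.39 to 1.21), and PSMB8, an immunoproteasome subunit gene, had 725 and 734 (0.23, 0.08 to 0.38). NR2F1-AS1 had 59 and 89 reads (0.80, 0.31 to 1.30), and the nuclear receptor gene NR2F1 had 177 and 212 (0.47, 0.17 to 0.77). SBF2-AS1 had 95 and 140 reads (0.77, 0.38 to 1.16), and SBF2 had 846 and 633 (-0.21, -0.36 to -0.06). These 3 of the 17 were higher by more than 1.5-fold and 0 were lower by as much, beside 8.72% and 6.77% of all genes with at least 100 reads, and so small a list was not read against that background. NNT-AS1 had 320 and 385 reads (0.48, 0.26 to 0.70), beside 875 and 958 for the mitochondrial transhydrogenase gene NNT (0.34). RNASEH1-AS1 had 258 and 266 reads (0.25, 0.00 to 0.51), beside 746 and 855 for the ribonuclease gene RNASEH1 (0.41). In both pairs the genes were higher together.

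ZEB1-AS1, partner of the gene of an EMT transcription factor, had 75 and 73 reads (0.17, -0.31 to 0.65), while ZEB1 had 697 and 883 (0.55, 0.41 to 0.70). THAP9-AS1 had 803 and 688 reads (-0.01, -0.16 to 0.14), and THAP9 had 45 and 63 (0.69, 0.12 to 1.28). GABPB1-AS1 had 356 and 338 reads (0.13, -0.08 to 0.35) and GABPB1 445 and 520 (0.43, 0.25 to 0.62). In these 3 pairs the interval of the antisense gene included 0 while the partner was higher. MAPKAPK5-AS1 had 449 and 319 reads (-0.28, -0.50 to -0.07), with MAPKAPK5 at 648 and 470 (-0.25). For PCBP1-AS1, FOXD2-AS1, TMPO-AS1, OTUD6B-AS1 and TRAF3IP2-AS1 the interval included 0, with values from -0.43 to 0.37.

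The 300-base windows from 250 bases before the start to 50 bases from it on were searched on both strands for short motifs in the GRCh37 genome. The motifs were the TATA box TATAAA, the CCAAT box CCAAT, the GC box GGGCGG, the ETS site CCGGAAG and the CRE TGACGTCA, and none of these contains another. GC boxes were present in 55.8% of the members' windows, in 65.3% of those of 13327 genes with at least 100 reads and in 34.3% of those of 44557 genes of the table. ETS sites were in 16.6% of the members' windows and 16.4% of those of genes with at least 100 reads. TATA boxes were in 7.18% and 6.96% of these windows, CCAAT boxes in 34.8% and 36.4%, and the CRE in 1.66% and 3.02%.

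Windows of the 37 head-to-head members without overlap held a GC box in 81.1% and an ETS site in 29.7%, with a median GC content of 70%. Those of the 144 other members held them in 49.3% and 13.2%, with a median GC content of 61.3%. In the stretches printed above, that of RNASEH1-AS1 held a GC box and that of NIPBL-AS1 an ETS site. Those of TMEM161B-AS1 and WAC-AS1 held none of these motifs. These stretches were picked by the counts and differ in length, from 62 bases for TMEM161B-AS1 to 293 for WAC-AS1. The stretch of UBA6-AS1, from a pair that moved in opposite directions, held a GC box. A match here is a match of letters in a window and was not tested against the counts.

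Genes of the nuclear RNA exosome and its adaptors, of which 24 of 25 listed were found, had a median log2 fold change of -0.044. Of these 24, 2 were higher by more than 1.5-fold and 0 lower, beside 8.72% and 6.77% of all genes with at least 100 reads. RBM7, an RNA-binding adaptor of the exosome, had 481 reads in siNC and 692 in siLINP1 (0.73, 0.56 to 0.91). The exosome cofactor gene C1D had 431 and 274 (-0.44, -0.67 to -0.22). Intervals of 6 genes lay above 0 and those of 7 below 0, beside 28.8% and 33.4% of all genes with at least 100 reads. So small a list was not read against that background.

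Antisense RNAs named -AS2 to -AS4 with at least 100 reads numbered 12, with a median of -0.033. DLGAP1-AS2 had 100 reads in siNC and 196 in siLINP1 (1.18, 0.83 to 1.54), HOXD-AS2 had 120 and 51 (-1.03, -1.53 to -0.54), and PIK3CD-AS2 had 76 and 40 (-0.72, -1.31 to -0.15). No other of the 12 was beyond 1.5-fold. Of all genes with at least 100 reads, 8.72% rose and 6.77% fell by as much, and so small a list was not read against these shares. HIF1A-AS2, antisense to the hypoxia factor gene HIF1A, had 2181 and 1612 reads (-0.23, -0.32 to -0.13). The 354 genes that the table types as antisense had a median of -0.015, so the wider antisense classes were also centred near 0.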

How the data were processed

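The deposited gene table was analysed for 2 libraries of HSC-1 cells, 1 with siNC and 1 with siLINP1. The authors used TopHat2 for alignment to GRCh37/hg19 and HTSeq for counting; the submitters' processing notes list HISAT2, TopHat2, Bowtie2, HISAT and hg19. Versions, gene annotation, counting mode and strand setting are not given in the sources used here. The deposited values are raw read counts per gene. The authors also deposited RPKM, which divides the counts by gene length and library total. A further 12 columns of per-sample values were not used.

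Libraries were scaled with size factors from the median of ratios (1.08 for siNC, 0.930 for siLINP1), and log2 fold changes were taken without a pseudocount for genes with at least 10 reads. Intervals are 95% Clopper-Pearson intervals of the split of a gene's reads, or exact conditional intervals of the odds ratio for the antisense to sense ratio. The median interval of a member reached 0.37 to either side on the log2 scale. The calculation was tested on simulated counts of the same genes.

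Pair positions came from the gene spans of the table, and exons from the GENCODE annotation of GRCh37, in which 176 members and 173 pairs were matched, 30 members under another name. Python 3.11.15, scipy 1.17.1 and edgeR 4.0.16 (for TMM factors only) were used. The named genes were LINP1, the 10 largest rises and falls by the nearer interval end, and the 6 most read members. They also included the 6 largest ratio changes in each direction by the nearer interval end, the listed well-known antisense RNAs and the members nearest the minimum. Some results on single genes of these lists are left out of this account. Genes named outside this rule were chosen after their values were seen. The members and lists were chosen with earlier results of these data known. The alternatives were scaling by total count or TMM, pseudocounts of 1 and 5, minimums of 30 and 300 reads, partners with at least 100 reads, pairs without overlap and, added after the data were seen, leaving out MATN1-AS1.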

Additional observations from a re-analysis of the deposited data

How the results depend on the processing

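No paired analysis was possible because each group has 1 library, and no library could be left out. Scaling by total count shifted every log2 fold change by 0.082 and TMM by 0.027. Under total count, 0 members had an interval below a 1.5-fold fall (1 under TMM, 2 as reported) and the median of the partners became 0.086. Of 94 named genes, 11 moved outside their counting interval under total count, 1 under TMM and 0 with pseudocounts of 1 or 5, and no direction of a called gene turned. Of the pairs that moved the same way, 35 of 42 kept that call under total count and 39 under TMM, and of those that moved opposite ways, 12 and 15 of 16.

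With a minimum of 30 reads (322 members, 313 pairs), a rise of more than 1.5-fold was seen in 53 members and a fall in 40, 10 had an interval above a 1.5-fold rise, 64 pairs moved the same way and 25 opposite, the antisense gene was relatively higher in 59, and the ratio was up beyond 1.5-fold in 10. With a minimum of 300 reads (77 members, 76 pairs), the counts were 6 higher and 4 lower, 2 with an interval above a rise and 1 below a fall, 25 pairs moving the same way and 8 opposite, 17 relatively higher and 12 relatively lower, and 1 with the ratio down beyond 1.5-fold. These minimums change how many members are counted. No share over all genes was computed at either minimum, so these counts were not read against a background. Over the 44 pairs without overlap, 8 moved the same way and 6 opposite, 11 were relatively higher and 8 relatively lower, the ratio was up beyond 1.5-fold in 1 and down in 2, and Pearson's r was 0.025; the cause of the lower correlation was not tested.

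With 1 library per group, the spread between cultures is unknown, and intervals cover counting error only. Most members had under 500 reads, and the median member had an interval of 0.37 to either side on the log2 scale. The strand setting of the counting is unknown.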
